A study of Rattus norvegicus with 9 samples.

Results

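All 9 arrays of a rat hippocampus series were compared as 6 arrays of ketone body exposure, with both exposure times taken as 1 group, against the 3 control arrays. The 9 arrays are the whole series. The labels describe RNA of hippocampal neurons held in artificial cerebrospinal fluid alone for the 3 controls, and treated with ketone bodies for 1 h (3 arrays) or 6 h (3 arrays). They name neither which ketone bodies were used nor their dose, nor how long the controls were kept, and they give no strain, age or sex. Nothing in them says that the 3 arrays of a group came from separate animals or cultures, so the p-values speak of array-to-array spread, which may be technical, and of nothing wider. A change was taken as shared by both exposure times where the probe set passed the test of 6 arrays against 3 and all 6 ketone arrays lay beyond all 3 controls on the same side.

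Ketone bodies, chiefly beta-hydroxybutyrate and acetoacetate, are made by the liver from fatty acids during fasting and serve the brain as fuel. They enter cells through monocarboxylate transporters and are turned into acetyl-CoA in mitochondria by the enzymes encoded by Bdh1, Oxct1 and Acat1. Chemokines are small secreted proteins that attract leukocytes, immediate early genes are switched on within minutes by stimuli such as neuronal activity, and metallothioneins bind zinc and other metals.

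A probe set is a group of array probes for one transcript, and its level is given throughout as log2 of the signal plus 16, after quantile normalization across the arrays. Of 18625 probe sets above the intensity filter, 11 passed in the comparison of all ketone arrays with control at a limma adjusted p under 0.05, 10 of them higher (0.0537% of those tested) and 1 lower (0.00537%). In all 11, each of the 6 ketone arrays lay beyond each of the 3 controls. The 9 with a single gene name were Ccl2, Cxcl1, Cxcl10, Cxcl11, Csrnp1, Gadd45g, Mt2A, LOC100911253 and Brcc3-ps7, and all 9 were higher after ketone bodies. Over all tested probe sets, the 6 ketone arrays lay above all 3 controls in 603 (3.24%) and below them in 273 (1.47%). The share of these that lay above was 68.8%, and it was 54.5% with the values as deposited and 85.1% with arrays centred on their medians, so the balance of higher and lower depends on the scaling. An unadjusted p under 0.05 was reached by 1819 probe sets, 1069 higher and 750 lower, where 931 would be reached by chance.

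**Figure D1:**
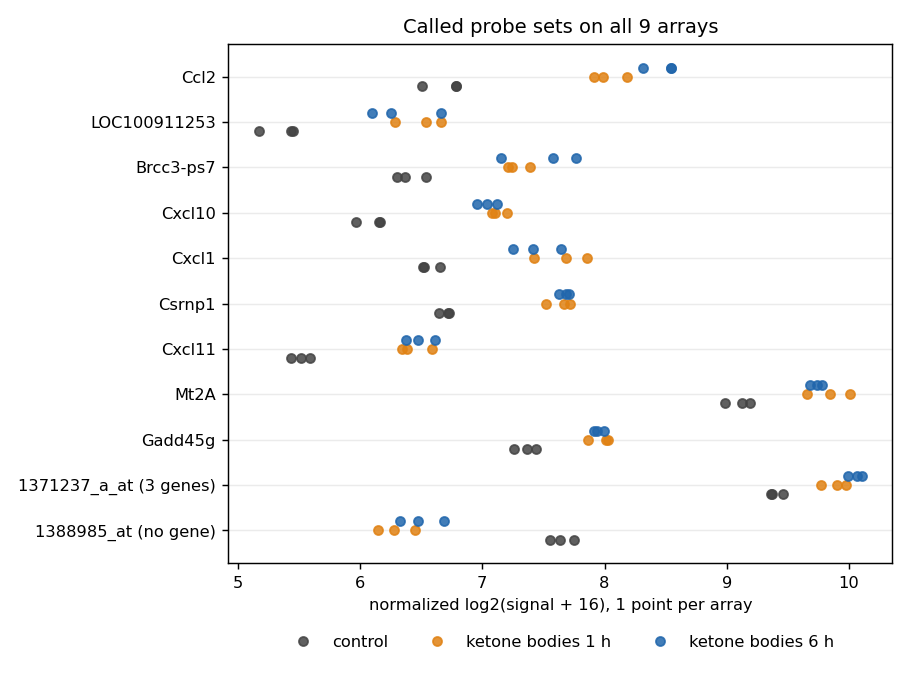
Level of each of the 11 called probe sets (rows) on every array, as normalized log2(signal + 16) on the x axis, with 1 point per array coloured by group (3 control, 3 at 1 h and 3 at 6 h). In each row the 6 ketone arrays do not overlap the 3 controls, and they lie above them in 10 rows and below them in the row of 1388985_at, which has no gene.

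The number of calls depended on every array, in fits that were each smaller by 1 array. It was 4 without control 1, 5 without control 2, 4 without control 3, 7, 6 and 6 without 1 h array 1, 2 or 3, and 9, 5 and 21 without 6 h array 1, 2 or 3. The probe sets of Csrnp1, Ccl2 and Cxcl10 and the one without a gene passed whichever single array was left out, and the other 7 were lost without at least 1. The log2 changes of those 7 kept their direction. They ran from 0.91 to 0.98 for Cxcl11, 0.63 to 0.73 for Mt2A, 0.92 to 1.04 for Cxcl1 and 0.56 to 0.65 for Gadd45g. For LOC100911253 the range was 0.97 to 1.13, for Brcc3-ps7 0.91 to 1.06 and for 1371237_a_at 0.54 to 0.61. The beta-actin 3′ to 5′ ratio, which rises as RNA is degraded or copied incompletely, was 1.35 ± 0.077 on the log2 scale in the controls (SD, n = 3) and ranged from 1.02 to 2.55, median 1.95, on the 6 ketone arrays, 4 of which lay above all controls. The difference of 0.48 had an exact two-sided permutation p of 0.190, where 0.0238 is the smallest p that 6 arrays against 3 allow. With this ratio as a covariate 4 calls were left, Csrnp1, Ccl2, Cxcl10 and the probe set without a gene, at limma adjusted p between 0.0234 and 0.0237. The Gapdh ratio was 0.13 ± 0.11 (SD, n = 3) in the controls and 0.15 ± 0.16 (SD, n = 6) after ketone bodies.

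**Figure D2:**
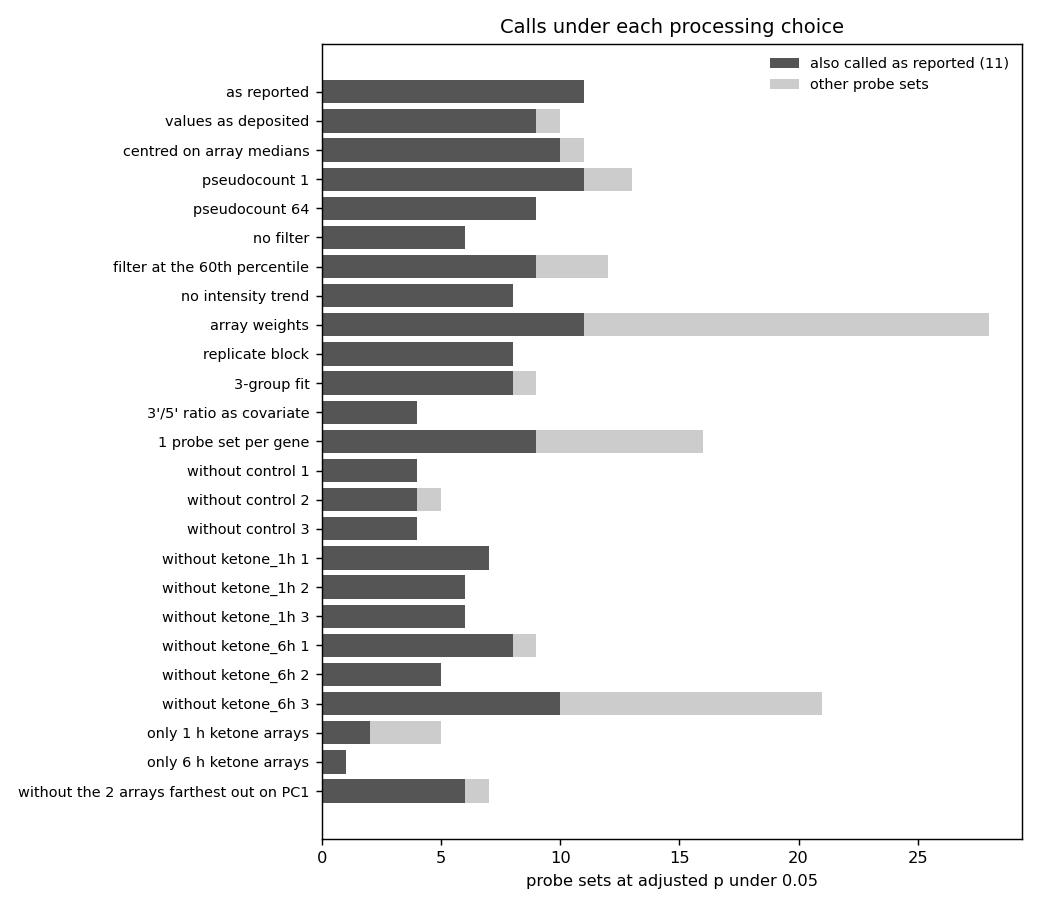
Number of probe sets at a limma adjusted p under 0.05 (x axis) under each processing choice (rows); the dark part counts those also called in the comparison as reported and the light part counts others. The total runs from 1 with only the 6 h ketone arrays to 28 with array weights, against 11 as reported.

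The labels speak of neurons, yet defining genes of other cell types were well above the filter on all 9 arrays. The astrocyte gap junction gene Gja1 lay between 11.78 and 12.12, the choroid plexus gene Ttr between 11.87 and 12.19 and the haemoglobin gene Hbb between 11.48 and 12.28 on the log2 scale. None of the 5 marker genes of T cells and neutrophils on the array passed the filter. In such mixed RNA, fewer cells of a type and less RNA per cell cannot be told apart.

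The chemokine genes made up the largest group of named calls, with 4 of the 9. Of 22 chemokine genes listed, 21 are on the array and 14 were tested. The 6 ketone arrays lay above all 3 controls for 5 of these 14 genes and below them for 1, against 428 of 10707 genes above (4%) and 115 below (1.07%) when every gene is represented by its brightest probe set. One of the 5, Ccl7, has a control mean under the filter and was tested only because its ketone arrays were higher. Among genes whose mean passes the filter in both groups, the counts were 4 above and 1 below of 13 chemokine genes, and 413 above (3.93%) and 110 below (1.05%) of 10503 genes. The median change of the 14 was 0.22 on the log2 scale, beside 0.05 over all genes, and 10 of the 14 were positive.

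Ccl2, which draws monocytes, was 6.79, 6.79 and 6.50 on the 3 control arrays, 7.92, 8.18 and 7.99 at 1 h and 8.31, 8.55 and 8.54 at 6 h. All ketone arrays were above all controls, and the 6 h arrays were above the 1 h arrays. Pooled over both times Ccl2 rose 2.94-fold, a log2 change of 1.56 ± 0.16 (SE), with a limma adjusted p of 0.00288.

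Cxcl10, one of the ligands of the receptor Cxcr3 on activated T cells, was 6.16, 6.17 and 5.97 in the controls, 7.11, 7.20 and 7.08 at 1 h and 6.96, 7.12 and 7.04 at 6 h. The 6 ketone arrays lay within a narrow range well above the controls. The rise was 1.98-fold, a log2 change of 0.99 ± 0.10 (SE), with a limma adjusted p of 0.00288.

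Cxcl11, another Cxcr3 ligand, was 5.52, 5.44 and 5.59 in the controls, 6.59, 6.34 and 6.38 at 1 h and 6.47, 6.61 and 6.37 at 6 h. It is a dim probe set, close to the filter at 5.21, and its groups did not overlap. The rise was 1.93-fold, 0.95 ± 0.11 (SE) on the log2 scale, with a limma adjusted p of 0.00853 that became 0.0996, 0.0953 and 0.0569 without control 1, 2 or 3 and 0.0561 with the beta-actin ratio as a covariate.

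Cxcl1, which draws neutrophils, was 6.52, 6.65 and 6.51 in the controls, 7.42, 7.68 and 7.86 at 1 h and 7.25, 7.64 and 7.41 at 6 h. The ketone arrays were spread more widely than the controls and did not overlap them. Cxcl1 rose 1.98-fold, 0.98 ± 0.13 (SE) on the log2 scale, with a limma adjusted p of 0.033, and this call was lost without any one control (0.243, 0.168 and 0.326), without the first or second 1 h array (0.0662 and 0.0884) and without the second 6 h array (0.0987). With the covariate its adjusted p was 0.177.

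Ccl2 had no entry among the promoter sequences and was not searched for motifs. The promoters of the 3 CXC chemokine genes are shown because each holds the letters of an NF-kB motif. They are the 250 bases upstream of the start in RefSeq's GRCr8 assembly, written 5′ to 3′ on the gene's strand, and capitals mark the NF-kB motif. Cxcl10 lies at chr14:15988816-15989065 (plus strand), Cxcl11 at chr14:15973478-15973727 (plus strand) and Cxcl1 at chr14:17479322-17479571 (minus strand).
Cxcl10: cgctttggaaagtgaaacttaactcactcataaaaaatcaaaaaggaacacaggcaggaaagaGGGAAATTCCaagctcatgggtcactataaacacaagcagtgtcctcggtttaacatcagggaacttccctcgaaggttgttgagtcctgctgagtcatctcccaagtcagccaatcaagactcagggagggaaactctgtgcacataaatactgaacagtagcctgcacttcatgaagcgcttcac
Cxcl11: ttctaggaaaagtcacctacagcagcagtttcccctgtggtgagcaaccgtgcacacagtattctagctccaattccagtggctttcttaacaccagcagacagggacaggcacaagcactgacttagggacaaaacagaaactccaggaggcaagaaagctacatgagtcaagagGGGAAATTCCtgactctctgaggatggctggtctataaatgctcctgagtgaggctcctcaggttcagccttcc
Cxcl1: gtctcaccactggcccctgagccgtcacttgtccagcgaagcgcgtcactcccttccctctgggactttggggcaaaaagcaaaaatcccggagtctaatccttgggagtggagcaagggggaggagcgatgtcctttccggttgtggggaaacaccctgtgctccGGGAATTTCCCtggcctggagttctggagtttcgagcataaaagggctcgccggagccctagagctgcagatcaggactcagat
Cxcl10 and Cxcl11, neighbours on chromosome 14, hold the same 10 letters, GGGAAATTCC, at positions -187 to -178 and -74 to -65 from the start. Cxcl1 holds 2 overlapping matches, GGGAATTTCC from -84 to -75 and GGAATTTCCC from -83 to -74. Searched on both strands, an NF-kB match is present in 3.52% of 27457 rat promoters of this length, 1 per gene. Cxcl10 also holds a match to the interferon-stimulated response element (GAAA, any 2 bases, GAAA) at -243 to -234, which is present in 3.29% of promoters. The AP-1 motif TGANTCA, present in 6.36%, occurs in Cxcl10 at -96 to -90 and in Cxcl11 at -85 to -79. These matches describe letters and show no binding.

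Of the remaining chemokine genes, Ccl7, a monocyte attractant like Ccl2, was 5.14, 5.26 and 4.98 in the controls, 5.57, 5.41 and 5.76 at 1 h and 6.11, 6.04 and 5.73 at 6 h. Its groups did not overlap, but its log2 change of 0.64 ± 0.17 (SE) did not pass (limma adjusted p = 0.355). Ccl4 went the other way, from 6.82, 6.69 and 6.74 to between 6.13 and 6.62 on the 6 ketone arrays, also without passing (log2 change -0.40, limma adjusted p = 0.413). Ccl7 and Ccl4 are named because their groups did not overlap, which was seen before they were chosen. The log2 changes of Cxcl2, Ccl3 and Cx3cl1 were -0.01, 0.06 and -0.04.

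Microglial marker genes, which belong to a cell type known to make chemokines, were mostly positive too. Of 11 tested, 8 were positive with a median log2 change of 0.22, and C1qa, Tmem119 and Tyrobp had all 6 ketone arrays above all controls, while none passed the test. These 3 are 27.3% of the 11, against 4% of all genes. Among the 9 microglial genes whose mean passes the filter in both groups, 6 were positive. The same 3 lay above all controls (33.3%, against 3.93% of all such genes). Of the 11 tested, 2 lay above with the values as deposited and 2 with centred arrays. C1qa was 8.49, 8.42 and 8.30 in the controls and between 8.53 and 8.79 after ketone bodies. The microglial genes Cx3cr1 and P2ry12 were lower, by log2 changes of -0.39 and -0.29. The summed microglial signal was 1626 to 1789 in the controls and 1704 to 1933 on the ketone arrays, so the groups overlapped. Its part in the chemokine result was not tested.

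Among immediate early and activity-regulated genes, Csrnp1 and Gadd45g rose in the test of 6 arrays against 3. Csrnp1, which encodes a nuclear protein induced by Axin, was 6.72, 6.73 and 6.65 in the controls, 7.67, 7.52 and 7.72 at 1 h and 7.71, 7.63 and 7.69 at 6 h. The ketone arrays lay close together, at both times, and far above the controls. The rise was 1.94-fold, a log2 change of 0.96 ± 0.088 (SE), with a limma adjusted p of 0.00288. Gadd45g, a stress-induced regulator of MAP kinase signalling and DNA repair, was 7.44, 7.37 and 7.26 in the controls, 8.03, 8.01 and 7.86 at 1 h and 7.91, 7.99 and 7.94 at 6 h. Its groups did not overlap, and it rose 1.52-fold, 0.60 ± 0.086 (SE) on the log2 scale, with a limma adjusted p of 0.0379. The Gadd45g call held only without the third 6 h array (0.0476): without any one control its adjusted p was 0.237, 0.238 and 0.326, without one of the 1 h arrays 0.116, 0.103 and 0.083, and without the first or second 6 h array 0.0638 and 0.115. With the covariate it was 0.177.

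Of 58 genes on this list, 51 were tested and 35 of them were positive, with a median log2 change of 0.14 (0.07 at 1 h and 0.20 at 6 h, against the same controls). All 6 ketone arrays lay above all controls for 17 genes and below them for 3, Dusp1, Ier3 and Klf2, and with arrays centred on their medians the counts were 18 and 0. The 17 that lay above were Csrnp1, Gadd45g, Maff, Klf4, Myc, Nfil3, Tiparp, Atf3, Fosb, Cebpb, Gadd45b, Gem, Nr4a1, Dusp5, Egr4, Egr2 and Rgs2, chosen for that after their values were seen, and 15 of them did not pass. Maff and Gem have control means under the filter, so they could enter only by being higher after ketone bodies. Among the 48 genes of the list that pass the filter in both groups, 15 lay above and 3 below (31.2% and 6.25%, against 3.93% and 1.05% of all such genes). The transcription factor gene Klf4 was 7.72, 7.47 and 7.59 in the controls, 8.24, 8.21 and 8.49 at 1 h and 8.53, 8.31 and 7.99 at 6 h (log2 change 0.70 ± 0.13, SE, limma adjusted p = 0.136). The stress-induced factor gene Atf3 was 7.42, 7.19 and 7.04 in the controls and between 7.68 and 8.03 after ketone bodies (log2 change 0.56, limma adjusted p = 0.194). The orphan nuclear receptor gene Nr4a1 was 9.05, 8.92 and 8.77 in the controls and between 9.24 and 9.60 (log2 change 0.46, limma adjusted p = 0.203).

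Fos, Arc and Egr1, often read as markers of neuronal firing, had groups that overlapped. Fos was 11.20, 11.05 and 11.40 in the controls, 11.09, 11.23 and 10.84 at 1 h and 11.06, 11.37 and 11.26 at 6 h, and its log2 change of -0.07 ± 0.11 (SE) turns to 0.01 with the values as deposited and 0.10 with centred arrays (limma adjusted p = 0.834). Arc and Egr1 had log2 changes of 0.13 and 0.01. Bdnf, a neurotrophin gene, was 7.72, 7.73 and 8.01 in the controls and between 7.23 and 8.18 on the ketone arrays, with a log2 change of -0.10 in this probe set and 0.25 in another. Dusp1, a MAP kinase phosphatase gene, was 10.22, 10.26 and 10.33 in the controls and between 9.83 and 10.08 after ketone bodies (log2 change -0.32, limma adjusted p = 0.297).

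**Figure D3:**
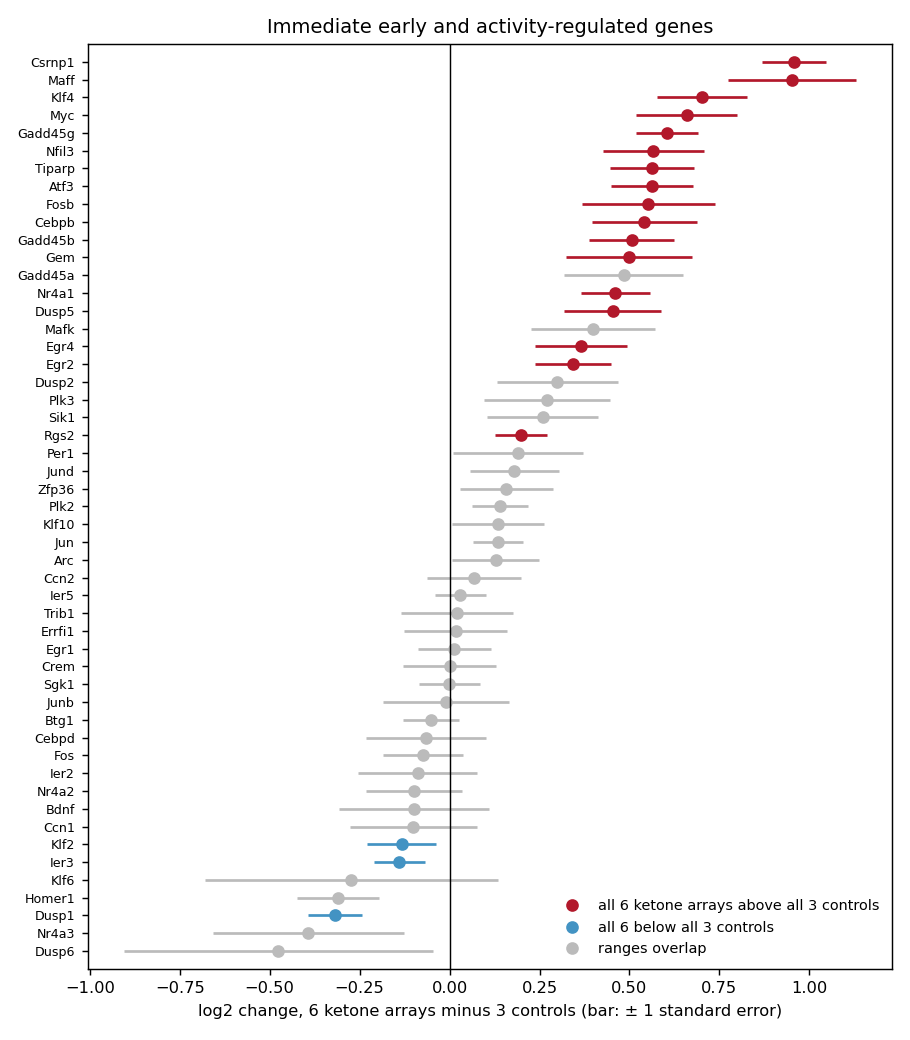
Log2 change of the 51 tested immediate early and activity-regulated genes, 6 ketone arrays minus 3 controls (x axis), with bars of 1 standard error; colour marks genes whose 6 ketone arrays all lay above (17) or below (3) all controls. Csrnp1 is at the top with 0.96, and Fos lies near 0.

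The metallothionein gene Mt2A was 8.99, 9.13 and 9.19 in the controls, 9.65, 10.01 and 9.84 at 1 h and 9.74, 9.78 and 9.68 at 6 h. All ketone arrays were above all controls. Mt2A rose 1.61-fold, a log2 change of 0.68 ± 0.09 (SE), with a limma adjusted p of 0.0282. The call was lost without any one control (0.237, 0.168 and 0.109), without the third 1 h array (0.083) and without the second 6 h array (0.0922), and its adjusted p was 0.177 with the covariate. A probe set annotated to 3 genes at once, 1371237_a_at, rose 1.49-fold (log2 change 0.57 ± 0.082, SE, limma adjusted p = 0.0379), from 9.36, 9.46 and 9.37 to between 9.77 and 10.11, and no gene is named for it here. Its call held only without the first 1 h array (0.0311): without any one control it was 0.243, 0.189 and 0.326, without 1 h array 2 or 3 0.103 and 0.0919, and without one of the 6 h arrays 0.0663, 0.107 and 0.0526.

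The promoter of Mt2A, at chr19:10838709-10838958 on the minus strand, is shown for its metal response elements, which are in capitals.
Mt2A: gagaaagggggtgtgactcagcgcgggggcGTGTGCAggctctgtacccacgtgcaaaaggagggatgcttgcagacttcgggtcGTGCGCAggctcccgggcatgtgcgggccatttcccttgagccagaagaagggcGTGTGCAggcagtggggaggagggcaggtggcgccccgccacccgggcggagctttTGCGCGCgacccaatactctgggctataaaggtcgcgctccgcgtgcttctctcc
The core TGCACNC or TGCGCNC was searched on both strands and occurs 4 times, from -220 to -214, -165 to -159, -111 to -105 and -55 to -49. At least 1 match is present in 21.2% of the 27457 promoters. No NF-kB match lies in these 250 bases of Mt2A, and 1 AP-1 match does. Of the 9 called genes 6 had an entry in the promoter table, while Ccl2, Csrnp1 and Brcc3-ps7 had none. LOC100911253 has 11 starts there and was not searched, and Gadd45g holds 1 match to the metal response element and none to NF-kB. Cxcl11 also holds 1 metal response element match, from -200 to -194.

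Mt2A was the only call among 19 tested metallothionein and antioxidant genes, 14 of which were positive with a median log2 change of 0.16. Sod1, the cytosolic superoxide dismutase gene, also had all 6 ketone arrays above the controls (log2 change 0.23) but did not pass. Mt2A and Sod1 are 10.5% of the 19, against 4% of all genes. The brain metallothionein gene Mt3 had a log2 change of 0.11, the haem oxygenase gene Hmox1 0.19 and the zinc exporter gene Slc30a1 -0.37.

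The lower call, probe set 1388985_at, has no gene in the array annotation. It was 7.55, 7.75 and 7.64 in the controls, 6.28, 6.45 and 6.15 at 1 h and 6.33, 6.69 and 6.48 at 6 h. No ketone array came near the controls. It fell by 1.25 ± 0.13 (SE) on the log2 scale, to 0.42 of control, with a limma adjusted p of 0.00288.

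LOC100911253, annotated as a long noncoding RNA, and Brcc3-ps7, annotated as a transcribed pseudogene, also rose. LOC100911253 was 5.44, 5.45 and 5.17 in the controls, 6.66, 6.29 and 6.54 at 1 h and 6.66, 6.25 and 6.10 at 6 h (2.09-fold, log2 change 1.06 ± 0.15, SE, limma adjusted p = 0.0379). It is close to the filter in the controls. Its other 2 probe sets had log2 changes of 0.69 and 0.47, but their control means of 4.92 and 5.19 are under the filter and they were tested only through their ketone arrays, so they add no support. The call held only without the third 6 h array (0.0264), and its adjusted p was 0.237, 0.196 and 0.326 without one of the controls, 0.0891, 0.0884 and 0.106 without one of the 1 h arrays, and 0.0663 and 0.0922 without the first or second 6 h array. Brcc3-ps7 was 6.54, 6.37 and 6.30 in the controls, 7.21, 7.25 and 7.39 at 1 h and 7.77, 7.58 and 7.15 at 6 h (1.98-fold, log2 change 0.99 ± 0.14, SE, limma adjusted p = 0.0415). Signal of a pseudogene's probe set cannot be told from that of a near-identical parent gene. Its call held without 6 h array 1 or 3 (0.0395 and 0.0324) and was lost without any one control (0.237, 0.335 and 0.326), without any one 1 h array (0.0751, 0.0884 and 0.106) and without the second 6 h array (0.115).

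The exposure times were then set side by side; both use the same 3 controls, so they are not independent. In a 3-group fit, whose spread comes from all 9 arrays, 6 probe sets were called at 1 h (0.0322% of those tested) and 5 at 6 h (0.0268%). In that fit 4 of the 11 pooled calls passed at both times, Csrnp1, Ccl2, Cxcl10 and the probe set without a gene, 1, the probe set annotated to 3 genes, passed at 6 h and not at 1 h, and 6 passed at neither. Fitted with the arrays of 1 time and the controls alone, 5 probe sets were called at 1 h, 2 of them among the 11 (Ccl2 and the probe set without a gene), and 1 at 6 h, Ccl2. In these smaller fits Csrnp1 had limma adjusted p-values of 0.0541 at 1 h and 0.224 at 6 h, and Cxcl10 0.0541 and 0.248. The log2 change of Csrnp1 was 0.94 ± 0.10 (SE) at 1 h and 0.98 ± 0.10 at 6 h. Cxcl10 had 1.03 ± 0.12 (SE) and 0.94 ± 0.12, and Cxcl11 0.92 ± 0.13 and 0.97 ± 0.13. Cxcl1 had 1.09 ± 0.15 (SE) at 1 h and 0.87 ± 0.15 at 6 h, and Mt2A 0.73 ± 0.10 and 0.63 ± 0.10.

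In the direct test of 6 h minus 1 h, which uses no control array in the difference, none of the 11 passed (lowest limma adjusted p 0.996), and 1, Ccl2, had an unadjusted p under 0.05. Ccl2 changed by 1.34 ± 0.13 (SE) at 1 h and 1.77 ± 0.13 at 6 h, and the 6 h level was higher than the 1 h level by 0.44 on the log2 scale (95% interval 0.15 to 0.72). The interval for Csrnp1 ran from -0.19 to 0.27, for Cxcl10 from -0.35 to 0.17, for Cxcl11 from -0.24 to 0.34, for Cxcl1 from -0.55 to 0.11 and for Mt2A from -0.33 to 0.13. For Gadd45g it ran from -0.25 to 0.21 and for Brcc3-ps7 from -0.14 to 0.58. For LOC100911253 it ran from -0.56 to 0.24, for 1371237_a_at from -0.01 to 0.36 and for the probe set without a gene from -0.10 to 0.51. A difference between the times within these bounds could not be seen with 3 arrays a group.

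**Figure D4:**
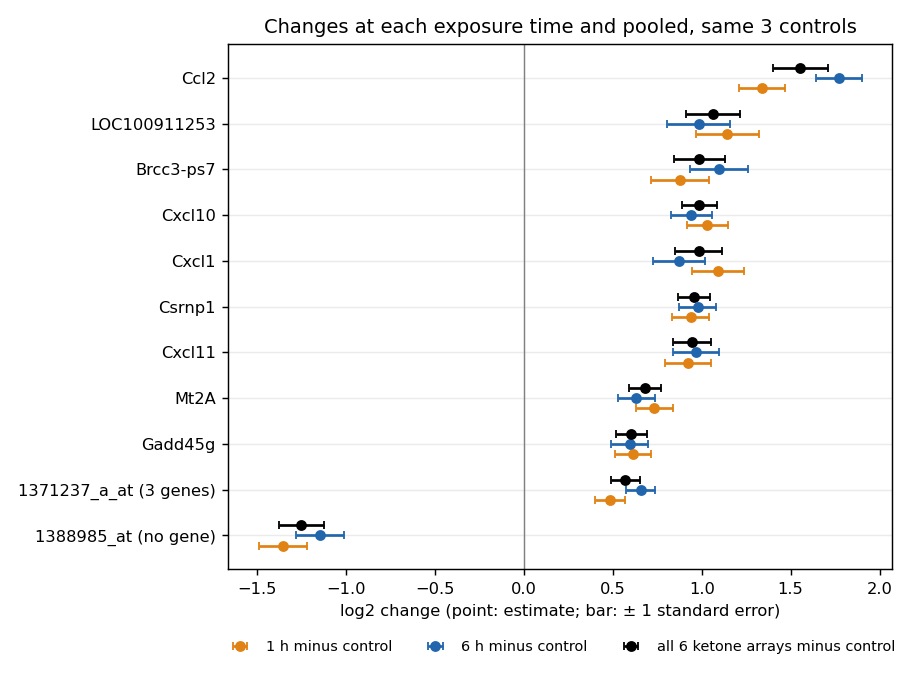
Log2 change against the same 3 controls (x axis) of the 11 called probe sets (rows) at 1 h (n = 3), at 6 h (n = 3) and for all 6 ketone arrays, with bars of 1 standard error. Ccl2 is the row in which the 6 h change (1.77) stands farthest above the 1 h change (1.34). In the other rows the times lie closer together than in Ccl2.

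Ppp1r15a, which encodes the phosphatase subunit GADD34 that reverses the integrated stress response, was 7.29, 7.30 and 6.98 in the controls, 7.85, 8.11 and 8.01 at 1 h and 8.22, 8.34 and 7.85 at 6 h. Its groups did not overlap, and the log2 change was 0.87 ± 0.13 (SE) with a limma adjusted p of 0.0509. Atf4, the transcription factor gene of the same response, was 10.59, 10.53 and 10.35 in the controls and between 10.74 and 10.94 after ketone bodies (log2 change 0.37, limma adjusted p = 0.14). Over the 22 tested integrated stress response genes 17 were positive, the median log2 change was 0.06, and Ppp1r15a and Atf4 alone had groups that did not overlap (9.09%, against 4% of all genes).

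Of 20 tested cytokine and NF-kB response genes none passed, 13 were positive and the median log2 change was 0.08. Among the 19 whose mean passes the filter in both groups, 12 were positive. All 6 ketone arrays lay above all controls for Icam1, Il1a, Irf1, Nfkbia and Zc3h12a, and below them for Ier3 and Tnf (5 and 2 of 20 genes, 25% and 10%, against 4% and 1.07% of all genes). Icam1, which encodes an adhesion molecule for leukocytes, was 6.47, 6.32 and 6.20 in the controls, 6.93, 6.73 and 7.23 at 1 h and 7.26, 7.03 and 7.06 at 6 h (log2 change 0.71 ± 0.13, SE, limma adjusted p = 0.137). Nfkbia, whose product holds NF-kB in the cytoplasm, was 7.99, 7.95 and 7.77 in the controls and between 8.24 and 8.84 after ketone bodies (log2 change 0.65, limma adjusted p = 0.194). Tnf, the tumour necrosis factor gene, was 7.74, 7.59 and 7.67 in the controls, 7.08, 7.10 and 7.41 at 1 h and 6.91, 6.90 and 6.69 at 6 h, below the controls on every array (log2 change -0.65 ± 0.14, SE, limma adjusted p = 0.243). Another probe set of Tnf had a log2 change of -0.55, with groups that overlapped. Il1b and Ptgs2 had log2 changes of 0.45 and -0.17, and Il1b has a control mean under the filter, so it was tested only through its ketone arrays.

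Interferon-response genes were mostly positive: 13 of 14 tested, with a median log2 change of 0.18, and none passed. Among the 13 whose mean passes the filter in both groups, 12 were positive. The summed signal of the 19 tested probe sets of the 14 genes was 5051 to 5108 in the controls and 5565 to 6006 on the ketone arrays, without overlap. Bright genes weigh most in such a sum. The brightest, B2m, had a log2 change of 0.07 in its brightest probe set and 0.45 in another. Irf1 and Irf7, which encode interferon regulatory factors, had all 6 ketone arrays above the controls (14.3% of the 14, against 4% of all genes), with log2 changes of 0.54 and 0.37. Irf1 was 6.99, 6.87 and 6.78 in the controls and between 7.19 and 7.69 after ketone bodies (limma adjusted p = 0.302).

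For energy metabolism, none of 10 tested genes of ketone body use and monocarboxylate transport passed, 5 were positive and the median log2 change was 0.02. In the brightest probe set of each gene, all 6 ketone arrays lay above all controls for Slc16a6 alone (10%, against 4% of all genes). Oxct1, the rate-limiting enzyme of ketone body use, was 10.63, 10.61 and 10.71 in the controls and between 10.50 and 10.71 on the ketone arrays, with a log2 change of -0.05 ± 0.07 (SE) that turns to 0.01 with the values as deposited and 0.10 with centred arrays. Bdh1 had a log2 change of -0.04 ± 0.14 (SE), turning to 0.02 with centred arrays, and 0.03 in another probe set. Acat1 had log2 changes of 0.10 in its brightest probe set and 0.21 in another, neither of which passed. The transporter gene Slc16a1 (MCT1) had 0.09 and Slc16a7 (MCT2, the neuronal form) -0.49 ± 0.25 (SE), both short of the threshold. Pdk4, which encodes a kinase that shuts off pyruvate dehydrogenase when fat or ketones are burned, was 5.80, 5.92 and 5.54 in the controls, 6.04, 6.34 and 6.25 at 1 h and 6.50, 6.49 and 6.54 at 6 h. Its groups did not overlap, and the log2 change was 0.61 ± 0.14 (SE) with a limma adjusted p of 0.294.

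Got1, the cytosolic aspartate aminotransferase of the malate-aspartate shuttle, was 9.57, 9.41 and 9.72 in the controls, 10.78, 10.51 and 10.79 at 1 h and 9.97, 10.61 and 10.32 at 6 h. The groups did not overlap, and the log2 change of 0.93 ± 0.16 (SE) did not pass (limma adjusted p = 0.129). Of the 19 tested genes of the citric acid cycle and this shuttle, 18 were positive with a median log2 change of 0.09. Got1 and Suclg2 had all 6 ketone arrays above all controls (10.5%, against 4% of all genes).

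Genes for mitochondrial and ribosomal proteins had small positive changes, and none passed. Of 76 oxidative phosphorylation subunit genes 70 were positive (median log2 change 0.13), of 70 mitochondrial ribosomal protein genes 65 (0.16), of 43 cytosolic ribosomal protein genes 42 (0.13) and of 43 proteasome subunit genes 37 (0.12). Over all 10707 genes 6804 were positive, and the median was 0.05. All 6 ketone arrays lay above all controls for 8, 10, 6 and 2 of these genes in turn (10.5%, 14.3%, 14.0% and 4.65%, against 4% of all genes), and below them for none (1.07% of all genes). The share of the proteasome genes is close to that of all genes. With the values as deposited the medians were 0.20, 0.16, 0.22 and 0.13 in the same order. The mitochondrial ribosomal gene Mrpl48 lay between 8.97 and 9.04 in the controls and between 9.27 and 9.64 after ketone bodies (log2 change 0.46, limma adjusted p = 0.194). Fatty acid oxidation and PPAR-responsive genes were positive for 22 of 25, with a median of 0.11, and glycolysis genes for 11 of 18, with a median of 0.03. The glycolysis values moved with the processing. As deposited 17 were positive (median 0.10), with centred arrays 17 (0.19) and with the beta-actin ratio as a covariate 7 (-0.01).

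**Figure D5:**
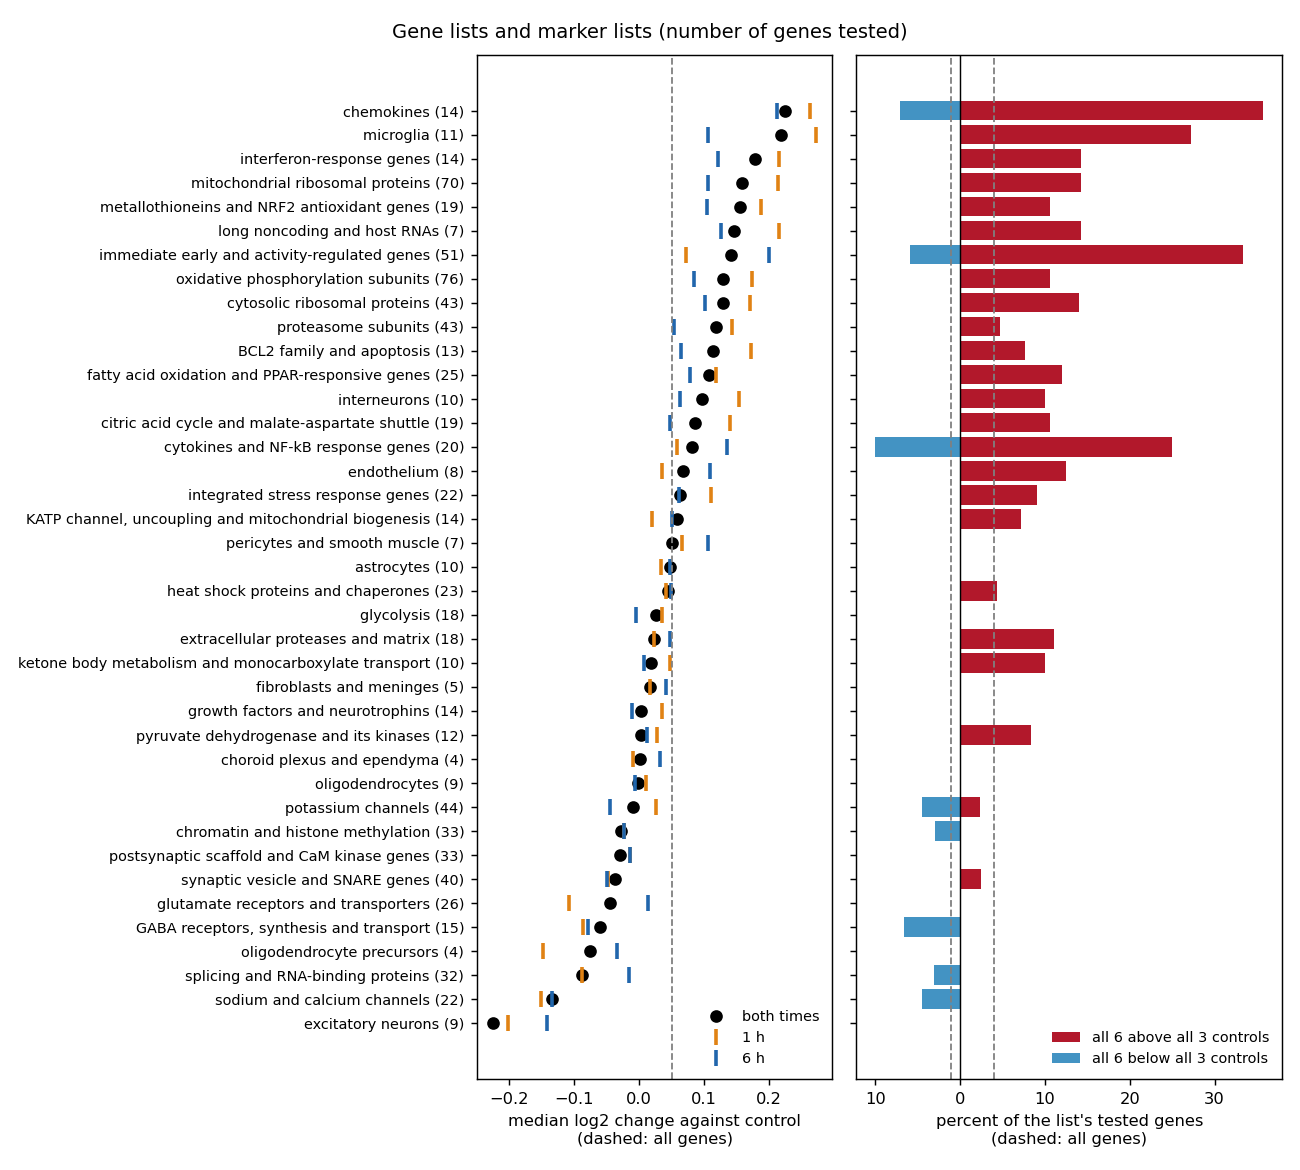
Left, the median log2 change of each gene or marker list (rows, with the number of genes tested) for both times pooled, at 1 h and at 6 h against the same controls; right, the percent of the list's genes whose 6 ketone arrays all lay above (to the right) or below (to the left) all controls, with dashed lines for all genes. Chemokines (0.22) and microglial markers (0.22) have the highest medians and excitatory neuron markers (-0.22) the lowest; lists with under 4 tested genes are left out.

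Among genes with lower levels after ketone bodies, no probe set with a gene name passed. The 5 with the smallest p, Vwa3a, Cnot6, Ank3, Dlg4 and Tnf, had limma adjusted p-values from 0.0803 to 0.243. In these 5 probe sets the groups did not overlap, which a choice by smallest p favours. Vwa3a was 6.02, 5.89 and 5.81 in the controls and between 4.77 and 5.38 on the ketone arrays, whose mean is under the filter, and its log2 change of -0.87 is -1.35 with a pseudocount of 1 and -0.42 with 64. Ank3, which encodes the ankyrin of the axon initial segment, was 7.32, 7.37 and 7.17 in the controls, 6.72, 6.36 and 6.63 at 1 h and 6.29, 6.08 and 6.84 at 6 h (log2 change -0.80 ± 0.16, SE). A brighter probe set of Ank3 had a log2 change of -0.77, with groups that overlapped. Dlg4, the postsynaptic scaffold PSD-95, was 8.40, 8.42 and 8.15 in the controls and between 7.33 and 7.94 after ketone bodies (log2 change -0.70), while its other probe sets had log2 changes of -1.30 and 0.16. Cnot6, a deadenylase subunit gene, had a log2 change of -0.51 in this probe set and -0.34 and 0.02 in others.

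Neuronal gene lists had medians at or below 0, and no member passed. The 22 tested sodium and calcium channel genes had a median log2 change of -0.13, with 5 positive, and -0.05 with centred arrays. Medians of -0.05 for glutamate receptors and transporters, -0.06 for GABA genes, -0.01 for potassium channels, -0.04 for synaptic vesicle genes and -0.03 for postsynaptic genes turned to 0.07, 0.07, 0.03, 0.11 and 0.06 with centred arrays. The vesicle protein gene Rims1 was 7.56, 7.86 and 8.10 in the controls and between 6.90 and 7.58 on the ketone arrays, where the groups overlapped. All 6 ketone arrays lay below all controls for Kcnd2 and Kcna2 (4.55% of 44 potassium channel genes). The same held for Gabrb1 (6.67% of 15 GABA genes) and Scn3b (4.55% of 22), against 1.07% of all genes. They lay above for Kcnj4 (2.27% of 44) and Rab3b (2.5% of 40 vesicle genes), against 4%. With centred arrays, 1 potassium channel gene and 0 GABA genes lay below.

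Excitatory neuron markers were negative for 8 of 9 genes, with a median log2 change of -0.22, and in the brightest probe set of each gene the groups overlapped. Another probe set of Camk2a, a calcium-dependent kinase gene, was 6.37, 6.26 and 6.28 in the controls and between 5.36 and 5.97 after ketone bodies (limma adjusted p = 0.302). The summed signal of the 13 tested probe sets of the 9 genes was 12035 to 13276 in the controls and 9787 to 11485 on the ketone arrays, without overlap. Tbr1, a transcription factor of glutamatergic neurons, was 6.37, 6.43 and 6.89 in the controls, 5.96, 4.55 and 5.14 at 1 h and 4.53, 4.89 and 6.38 at 6 h (log2 change -1.32 ± 0.38, SE, limma adjusted p = 0.409). The ketone arrays highest for Tbr1, 1 h array 1 and 6 h array 3, had the lowest beta-actin ratios among them, 1.38 and 1.02. The same arrays were highest for the first Ank3 probe set (6.72 and 6.84). The Camk2a probe set was highest on 6 h array 1 (5.97), whose ratio was 2.55. With the ratio as a covariate the median of the excitatory markers was -0.22. The part of RNA quality in these changes was not tested. Interneuron markers had a median of 0.10, and the summed signal of their 12 tested probe sets was 9962 to 10290 in the controls and 10479 to 11130 after ketone bodies, also without overlap. Of the 10 genes 7 were positive and 3 negative, Gad2 (log2 change -0.90), Reln (-0.25) and Gad1 (-0.01), and Pvalb and Vip had 0.45 and 0.26. Sst, the somatostatin gene, was 10.18, 10.15 and 10.28 in the controls and between 10.41 and 10.66 after ketone bodies (log2 change 0.31 ± 0.07, SE, limma adjusted p = 0.294).

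Of the other marker lists, astrocyte genes had a median log2 change of 0.05, endothelial genes 0.07, pericyte and smooth muscle genes 0.05 and oligodendrocyte genes -0.0017. These medians move with the scaling and 2 of them change sign: as deposited they were 0.10, 0.01, -0.02 and 0.07 in the same order, and with centred arrays 0.19, 0.10, 0.07 and 0.16. The 2 tested blood genes, Hbb and Alas2, had a summed signal of 2928 to 3750 in the controls and 3819 to 5043 on the ketone arrays, without overlap. Hbb itself was 11.71, 11.84 and 11.48 in the controls and between 11.86 and 12.28 on the ketone arrays. The part of these cell types, blood included, in the 11 calls was not tested.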

How the data were processed

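RNA of 9 rat samples was hybridised to a 1-colour array, 1 array per sample, and the authors deposited 1 table of linear intensity values for 31099 probe sets. Each array's intensity values have a trimmed mean of 150.05 (2% trimmed at each end), so the authors' table is already scaled per array; which software and background correction made them is not given in the sources used here. The 57 control probe sets were left out, 16 was added, log2 taken and arrays quantile-normalized. Of the other 31042 probe sets, 20826 list 1 gene, 436 several and 9780 none, and symbols were checked against RefSeq's GRCr8 table (20764 matched). Probe sets with a mean under the 40th percentile (5.21, a signal of 21.0) were left out, which left 18625. The test was limma 3.58.1 (R 4.3.3; lmFit, eBayes with trend) with 1 coefficient for ketone against control, 7 residual degrees of freedom and Benjamini-Hochberg adjustment at 0.05. A 3-group fit (6 residual degrees of freedom) gave the 1 h, 6 h and 6 h minus 1 h values. Permutation tests were run in scipy 1.17.1. In a gene list each gene stands for its probe set with the highest mean, except that summed signals add all tested probe sets of the list. No list was tested as a set. The script was tested on simulated data.

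Named genes are, in each direction, the called probe sets with 1 gene and all 6 ketone arrays beyond the controls, or the 5 with the smallest p where fewer than 5 pass, up to 4 called members of each list (otherwise the 2 with the smallest p), and a fixed set (Fos, Bdnf, Pdk4, Slc16a7, Slc16a1, Oxct1, Bdh1). Other names were chosen after their values were seen. The comparison, the 29 gene lists and the 12 marker lists were chosen with earlier results of these data known. Replicate numbers were not used to pair arrays in the main fit. Deviations from group means of same-numbered arrays correlated between -0.36 and 0.54, above 0.1 in 3 of 9 pairs. For differently numbered arrays the range was -0.43 to 0.53. With so few arrays these correlations cannot decide whether arrays were paired. The number of arrays limits the precision. In all, 24 alternatives were run.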

Additional observations from a re-analysis of the deposited data

Results flagged for a closer look

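Of 96 sets of values tested for a sample that stands apart among the 6 ketone arrays, 3 did so. Chance gives about 1 in 20, so 3 of 96 is no more than chance would give. The third 6 h array had a Rims1 level of 7.58 where the other 5 ketone arrays lay between 6.90 and 7.14, and its Aqp4 level was 8.39 (others 7.27 to 7.63), in both cases within the range of the controls. Its beta-actin 3′ to 5′ log2 ratio, 1.02, was the lowest of all arrays. The first 6 h array had a Gapdh 3′ to 5′ log2 ratio of 0.457, where the others lay between 0.0362 and 0.136, and it also had the highest beta-actin ratio, 2.55. Causes were not tested.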

How the results depend on the processing

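Over 24 alternatives the 11 calls (10 higher, 1 lower) became 6 (5 higher) with no filter, 28 (24 higher, 4 lower) with array weights, 4 (3 higher) with the beta-actin ratio as a covariate, 5 (3 higher, 2 lower) with only the 1 h ketone arrays, 1 (1 higher, 0 lower) with only the 6 h arrays and 7 (6 higher) without the ketone arrays that stand farthest out on principal component 1 (6 h array 1 and 1 h array 3); with the values as deposited 2 were lower. Leaving out 1 array gave 4 to 21 calls (3 to 14 higher, 1 to 7 lower). With the replicate block 8 probe sets were called, all 8 of them among the 11. Ccl2 passed under all 24 alternatives. Of the values of named genes under the alternatives, 2084 kept direction and side of the threshold, 95 lost the threshold, 18 gained it and 16 changed sign. Of the list medians 807 kept within their spread and 51 moved. The sign changes were in Gja1 (0.046) and Ttr (0.072) with centred arrays; Oxct1 with values as deposited (0.011) and centred (0.10); Fos as deposited (0.013), centred (0.10), without control 3 (0.016; range without 1 array -0.16 to 0.016), with only 6 h arrays (0.014) and without the far arrays (0.022); Bdnf without these arrays (0.036); and Bdh1 centred (0.022), with array weights (0.0022), with the covariate (0.13), without control 2 (0.023), without 6 h array 1 (0.028; range without 1 array -0.088 to 0.028) and with only 1 h arrays (0.053). The cause was not tested. Array number and dim probe sets, such as Cxcl11, Ccl7 and Vwa3a, limit what could be called.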
